A study of Homo sapiens with 8 samples.

Results

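The activator protein 1 (AP-1) subunits FOS, FOSB, FOSL1, FOSL2, JUN, JUNB, JUND and BATF, together with the transcription factors EGR1 and MYC, were examined in liver cells exposed to plastic antioxidants. The 10 genes were taken by name from a table of 60230 genes, and all 10 were in it. All samples were CYP2C19-overexpressing HepG2 cells, a human liver cancer line made to overexpress a drug-metabolizing cytochrome and kept under blasticidin. The cells received DMSO, the solvent, or 1 of 3 bisphenol antioxidants. Compound 4 is a pair of methylphenol rings on a methylene bridge with a tert-butyl group beside each hydroxyl, compound 6 has cyclohexyl groups in that place, and compound 5 has an ethane-derived bridge and a pair of tert-butyl groups on each ring. Each compound was given at its own IC50, the concentration that lowered cell viability by an equal share in a separate assay. The molar concentrations were thus not the same, though the paper calls the 3 IC50 values rather comparable. That assay ran longer than the exposure for RNA, so viability in the sequenced cultures is not known from it. There were 2 samples in each of the 4 groups, labelled with different days, which were taken as replicates 1 and 2. The labels also give the day as a time, while the study's methods give a single exposure time, so if the day were an exposure time the samples of a group would not be replicates and the errors and p-values would include that difference. Nothing in the labels tells whether the days were separate cultures, so the p-values measure the spread between these samples, which may be technical.

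AP-1 is a dimer. JUN proteins pair with each other or with FOS proteins through a leucine zipper and bind DNA at a short palindrome, while BATF joins JUN proteins but lacks a transactivation domain of its own. Many of these genes, and EGR1 and MYC, are immediate early genes: signals that pass through the ERK, JNK and p38 kinases switch them on from factors already present in the cell, without new protein synthesis. FOS and EGR1 are read out within minutes of a stimulus through serum response factor and its ELK partners, whereas FOSL1, FOSL2 and JUND stay on for longer, and FOSL1 and JUN are themselves AP-1 targets. By the study's methods the cells were harvested many hours after the compounds were added, so the first minutes were not sampled here. In liver, JUN and MYC take part in regeneration after injury and in liver cancer.

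Library totals ranged from 9791659 to 17814595 counts, and 13400 genes passed the filter on low counts, among them all 10 genes examined. BATF passed through the treated samples alone, since each DMSO library held 3 BATF counts. The 10 hepatocyte markers fixed as a list (such as ALB and APOA1) were all tested, and their summed level was 54271 to 58771 CPM (counts scaled to library size) in DMSO, 37746 to 45890 CPM under compound 4, 46496 to 47599 CPM under compound 5 and 41024 to 47414 CPM under compound 6. The sum was thus lower in all 6 treated libraries than in both DMSO libraries, and its part in the results given here was not tested. It is weighted towards abundant genes such as ALB, and not every marker fell. The log2-fold change was positive for 2, 1 and 1 of the 10 with compounds 4, 5 and 6. AFP, APOB, TF and APOA1 were called lower with compound 4, while FGB was called higher with compound 5 (on average 186 CPM in DMSO and 269 CPM with compound 5). Of 5 fibroblast markers, 3 were at 0 in every library, and so were 2 of 4 leukocyte markers, namely PTPRC and CD3E, while the sum over the leukocyte list lay between 20.1 and 39.6 CPM, highest under compound 4 and made up almost entirely of CD68. CYP2C19 itself averaged 22.0 CPM in DMSO and 37.8, 45.4 and 22.6 CPM with compounds 4, 5 and 6, and it rose with compound 5 (log2-fold change 1.05, SE 0.26, adjusted p of 0.040 in edgeR's quasi-likelihood test). Its part in the results was not tested.

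Promoter sequence was drawn from RefSeq (GRCh38.p14) for the 250 bases before the start of transcription, which was found for 8 of the 10 genes. Each was searched on both strands for the AP-1 site TGANTCA, the cyclic AMP response element TGACGTCA, the AP-1 variant TGACATCA, the CArG box bound by serum response factor, the EGR site GCGNGGGCG, the E-box CACGTG and the TATA box TATAAA, motifs that do not contain each other. EGR1 is shown because it had the largest fitted change after BATF, with the 2 CArG boxes and the EGR site of this window in capitals. JUNB and JUND are shown as a JUN gene that was called and a JUN gene that was not, with a TATA box in capitals for JUNB and a cyclic AMP response element for JUND.
EGR1 (chr5:138465229-138465478, + strand): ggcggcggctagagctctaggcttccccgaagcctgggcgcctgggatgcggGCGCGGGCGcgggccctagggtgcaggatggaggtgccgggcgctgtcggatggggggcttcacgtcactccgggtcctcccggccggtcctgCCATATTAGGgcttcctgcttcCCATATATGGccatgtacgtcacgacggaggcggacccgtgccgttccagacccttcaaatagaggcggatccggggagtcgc
JUNB (chr19:12791236-12791485, + strand): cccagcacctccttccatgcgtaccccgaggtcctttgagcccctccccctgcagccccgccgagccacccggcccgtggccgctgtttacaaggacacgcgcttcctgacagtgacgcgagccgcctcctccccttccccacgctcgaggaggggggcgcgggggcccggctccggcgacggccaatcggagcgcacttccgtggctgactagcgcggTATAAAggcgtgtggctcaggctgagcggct
JUND (chr19:18281623-18281872, - strand): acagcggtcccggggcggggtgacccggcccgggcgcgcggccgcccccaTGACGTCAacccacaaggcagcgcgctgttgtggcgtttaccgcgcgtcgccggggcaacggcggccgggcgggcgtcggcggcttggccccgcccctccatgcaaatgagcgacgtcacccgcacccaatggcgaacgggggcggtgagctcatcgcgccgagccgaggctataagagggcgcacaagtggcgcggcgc

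The CArG boxes in the EGR1 window lay 105 to 96 and 83 to 74 bases before the start, and the EGR site 198 to 190 bases before it. Sequence farther upstream was not searched for any gene. A CArG box was found in 1.16% of the 35116 promoters of this length and an EGR site in 8.41%. The TATA box of JUNB lay 31 to 26 bases before the start, FOS and FOSB had the same letters at 33 to 28 and 30 to 25 bases, and 10.7% of promoters held them. JUND had the cyclic AMP response element 200 to 193 bases before its start, a motif in 1.65% of promoters, and JUN had TGACATCA at 67 to 60 bases, found in 2.37%. None of the motifs searched was in the windows of FOSL2 and BATF. AP-1 sites (6.57% of promoters) and E-boxes (6.34%) were in none of the 8 windows. The windows of FOS, FOSB, FOSL2, JUN and BATF overlap the GENCODE gene models, which start farther upstream than RefSeq for these genes or at the last base of the window. The JUN and FOSL2 windows lie wholly inside their gene models. The distances given hold for the RefSeq start, and the matches describe the letters only.

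The 10 genes spanned a wide range of expression in DMSO. Per kilobase of exon, MYC was the most abundant, at 104 and 94.6 CPM per kb in the 2 DMSO libraries, followed by JUND (47.0 and 37.9) and JUN (29.2 and 22.8). JUNB (7.15 and 6.67), FOSL1 (4.29 and 4.57) and FOSL2 (4.51 and 4.21) were lower, and FOSL1 and FOSL2 overlapped. FOS (3.23 and 2.07) and EGR1 (2.02 and 1.44) came next, with the lower FOS library close to the higher EGR1 library, and FOSB (0.591 and 0.332) and BATF (0.314 and 0.256) were lowest. JUND and JUN were thus the most abundant JUN transcripts in DMSO.

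**Figure D1:**
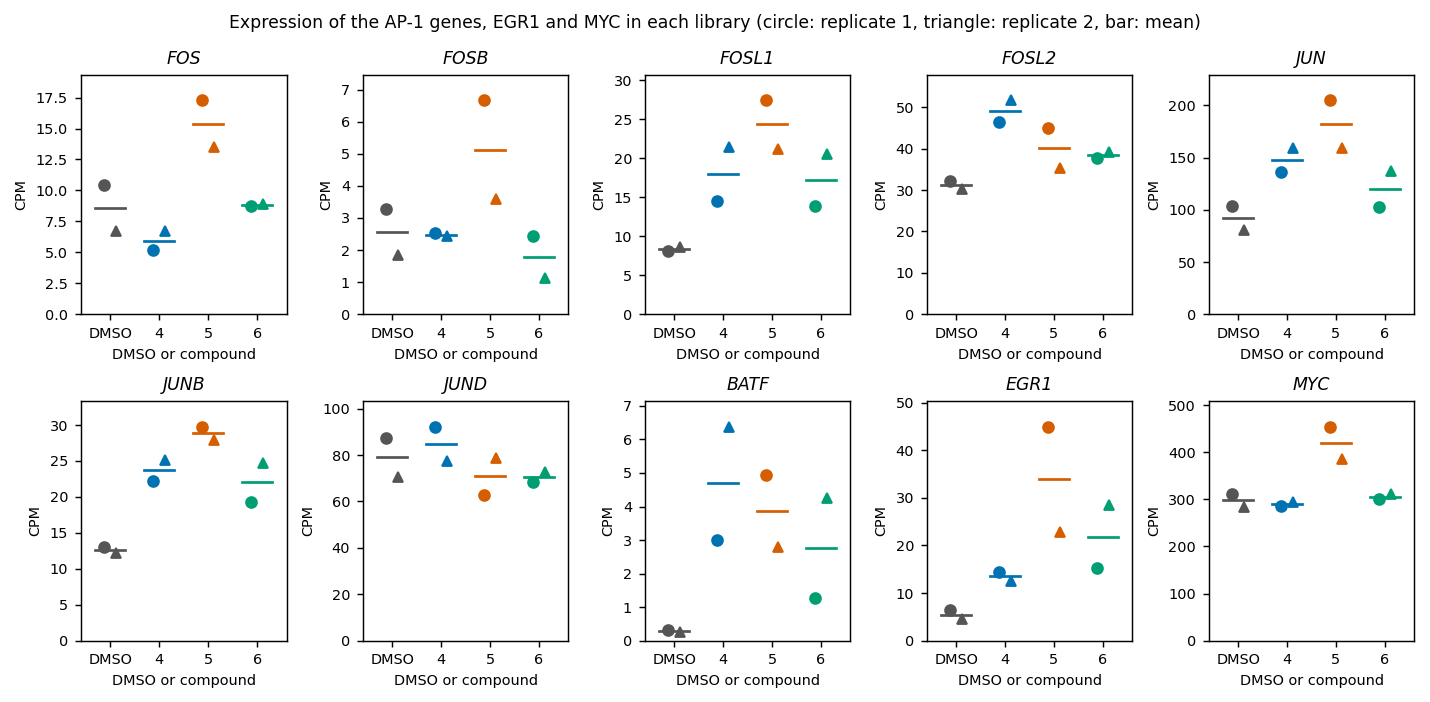
Level of each gene in CPM (linear axis from 0, a separate axis for each gene) in the 8 libraries, with replicate 1 as a circle, replicate 2 as a triangle and the group mean as a bar. EGR1 reached 45.0 CPM under compound 5 against 6.35 and 4.52 CPM in DMSO, and BATF had 3 counts in each DMSO library.

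Under compound 4, FOSL1, FOSL2, JUN and JUNB rose, and under compound 5, FOSL1, JUN, JUNB, EGR1 and MYC rose. BATF was called under both as well, for 5 and 6 of the 10 genes in all, but it entered the test only through the treated libraries in which it was high, so its call adds no support. None of the 10 fell. Under compound 6 none passed the threshold. An unadjusted p under 0.05 in edgeR's quasi-likelihood test was found for 4 (EGR1, JUNB, FOSL1 and BATF), and DESeq2 called the same 4. BATF again adds no support. Over all genes tested, 9.51%, 8.3% and 0.575% were called in either direction with compounds 4, 5 and 6. Split by direction, 5.6% were called higher and 3.91% lower with compound 4, 5.35% and 2.95% with compound 5, and 0.493% and 0.0821% with compound 6, where 18.6% had an unadjusted p under 0.05. The median log2-fold change of the 10 genes was 0.67, 0.99 and 0.34 for compounds 4, 5 and 6, against 0.01, 0.00 and 0.02 over all genes tested, and without BATF it was 0.66, 0.98 and 0.30. Both treated libraries lay above both DMSO libraries for 6, 9 and 5 of the genes, where 30.4%, 31% and 29.3% of all tested genes did so. Without BATF, whose separation the filter favoured, it was 5, 8 and 4 of 9 genes. The 3 comparisons share the DMSO libraries. In RNA from whole cultures, a change in each cell and a change in the share of cells that express a gene cannot be told apart.

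These calls depended on single libraries. Without DMSO replicate 2 no gene was called under compounds 4 or 5, and without DMSO replicate 1 JUNB alone was called under both. Without compound 4 replicate 2 none was called under compound 4, and without compound 5 replicate 1, EGR1 and JUNB were called under compound 5. In these fits 1 library stood for a group and was assumed to vary like the others, and no called gene changed direction. The call of JUN with compound 4 was also lost without compound 4 replicate 1 (adjusted p = 0.074), and that of MYC with compound 5 without compound 6 replicate 1 (adjusted p = 0.051). Calls were gained by EGR1 with compound 4 and by EGR1 and JUNB with compound 6 when either compound 5 replicate was left out, by EGR1 with compound 6 without compound 6 replicate 1, and by FOS and FOSL2 with compound 5 without compound 5 replicate 2, all in edgeR's quasi-likelihood test.

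Among the FOS genes, the well-known rapid responder FOS (ENSG00000170345, chr14:75278774-75282230) had 10.5 and 6.70 CPM in DMSO, 5.16 and 6.69 under compound 4, 17.3 and 13.5 under compound 5 and 8.73 and 8.91 under compound 6. Compound 5 gave the 2 highest libraries and compound 4 the 2 lowest, the latter just below DMSO replicate 2. The log2-fold change was −0.51 (SE 0.25, adjusted p = 0.22), 0.85 (SE 0.24, adjusted p = 0.056) and 0.05 (SE 0.25, adjusted p = 0.94) for compounds 4, 5 and 6, so FOS did not pass the threshold by edgeR's quasi-likelihood test. FOSB, its close relative, had 32 and 22 counts in DMSO and 81 and 63 under compound 5, or 3.28 and 1.84 against 6.67 and 3.59 CPM. The groups did not overlap, but the log2-fold change of 1.00 (SE 0.44) had an adjusted p of 0.17. Under compounds 4 and 6 FOSB overlapped with DMSO, at 2.53 and 2.43 CPM and at 2.45 and 1.14 CPM. FOSB lies on the opposite strand to ERCC1 and shares no exon bases with it.

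FOSL1 (FRA1; chr11:65892049-65900573, - strand), an AP-1 subunit that accumulates under sustained ERK signalling, had 8.10 and 8.63 CPM in DMSO, 14.4 and 21.4 under compound 4, 27.4 and 21.2 under compound 5 and 13.8 and 20.6 under compound 6. All 6 treated libraries lay above both DMSO libraries, which 14.4% of tested genes also showed. FOSL1 rose 2.15-fold under compound 4 (log2 1.11, SE 0.25, adjusted p = 0.028) and 2.89-fold under compound 5 (log2 1.53, SE 0.25, adjusted p = 0.011), and under compound 6 the log2-fold change of 1.04 (SE 0.26) had an adjusted p of 0.087, all by edgeR's quasi-likelihood test. FOSL2 (FRA2), which is expressed more steadily, had 32.3 and 30.1 CPM in DMSO, 46.5 and 51.7 under compound 4, 45.0 and 35.2 under compound 5 and 37.7 and 39.2 under compound 6. It too was above DMSO in all treated libraries, but by less. It rose 1.58-fold under compound 4 (log2 0.66, SE 0.14, adjusted p = 0.023), while the log2-fold changes of 0.36 under compound 5 and 0.30 under compound 6 had adjusted p-values of 0.14 and 0.30.

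Among the JUN genes, JUN (chr1:58780788-58784327, - strand), the transactivating subunit and a substrate of JNK, had 103 and 80.7 CPM in DMSO, 137 and 159 under compound 4, 205 and 159 under compound 5 and 102 and 138 under compound 6. Compounds 4 and 5 lay above both DMSO libraries, whereas compound 6 replicate 1 lay between them. JUN rose under compound 4 (log2 0.68, SE 0.19, adjusted p = 0.048) and under compound 5 (log2 0.98, SE 0.19, adjusted p = 0.016) by edgeR's quasi-likelihood test. With the day as a block the adjusted p under compound 4 was 0.054, and with DESeq2's size factors it was 0.051, so this call was lost under both.

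JUNB, which often restrains JUN, had 13.0 and 12.1 CPM in DMSO, 22.2 and 25.2 under compound 4, 29.8 and 27.9 under compound 5 and 19.3 and 24.7 under compound 6. Every treated library lay above both DMSO libraries. The log2-fold change was 0.92 (SE 0.16, adjusted p = 0.010) under compound 4, 1.20 (SE 0.15, adjusted p = 0.0047) under compound 5 and 0.81 (SE 0.16, adjusted p = 0.054) under compound 6, in edgeR's quasi-likelihood test. JUNB shares 259 exon bases, 14.2% of its exons, with HOOK2 on the opposite strand. The paper names a directional library kit, but the use of strand in counting is not given in the sources used here. In edgeR's quasi-likelihood test HOOK2 fell by 0.51 on the log2 scale with compound 5 (adjusted p = 0.049). It did not pass the threshold under compounds 4 and 6 (−0.09 and −0.02). The part of shared reads in the JUNB values was not tested. JUND, the constitutive JUN gene, had 87.5 and 70.7 CPM in DMSO, 92.3 and 77.3 under compound 4, 63.0 and 78.8 under compound 5 and 68.3 and 72.7 under compound 6. All groups overlapped with DMSO, and the log2-fold changes of 0.10, −0.15 and −0.16 had intervals (95%) of −0.24 to 0.44, −0.50 to 0.19 and −0.51 to 0.18, so changes up to these bounds could not be resolved.

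BATF (chr14:75522425-75547015), known from lymphocytes and induced by cytokines, was almost absent in DMSO. It had 3 and 3 counts there, 32 and 84 under compound 4, 60 and 49 under compound 5 and 13 and 45 under compound 6, or 0.307 and 0.251 CPM against 1.28 to 6.39 CPM in the treated libraries. Every treated library was above DMSO, and the replicates of compound 6 had the largest ratio to each other. The ratio of the summed counts to DMSO, scaled for depth, was 17.6 (exact interval 7.85 to 49.0) under compound 4, 13.3 (5.90 to 36.9) under compound 5 and 10.1 (4.37 to 28.7) under compound 6, intervals (95%) that cover counting error only. In edgeR's quasi-likelihood test the adjusted p was 0.015, 0.022 and 0.088, for a gene that passed the filter only through the groups where it was high. The fitted log2 value of 4.05 (compound 4) and that of 3.28 (compound 6) were 3.39 without compound 4 replicate 2 and 2.17 without compound 6 replicate 2. The lymphocyte markers CD3E and PTPRC were at 0 counts in all libraries, and CD79A had at most 3 counts.

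EGR1 (chr5:138465490-138469315), a zinc finger factor induced by ERK through its CArG boxes, had 6.35 and 4.52 CPM in DMSO, 14.4 and 12.5 under compound 4, 45.0 and 22.8 under compound 5 and 15.2 and 28.5 under compound 6. All treated libraries were above DMSO, and compounds 5 and 6 overlapped with each other. EGR1 rose 6.23-fold under compound 5 (log2 2.64, SE 0.39, adjusted p = 0.0075), the largest log2-fold change of the 10 genes after BATF. Under compound 6 the log2-fold change was 2.02 (SE 0.40, adjusted p = 0.054) and under compound 4 it was 1.32 (SE 0.41, adjusted p = 0.071), both above 0.05 in edgeR's quasi-likelihood test. By DESeq2 the adjusted p for EGR1 was 6.12e-06 and 0.00448 for compounds 6 and 4, and when the fit held the 4 samples of a comparison alone it was 0.00916 and 0.00741.

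MYC, which drives growth and ribosome production, had 312 and 284 CPM in DMSO, 286 and 294 under compound 4, 455 and 386 under compound 5 and 300 and 311 under compound 6. Compound 5 stood above all other libraries, and compounds 4 and 6 overlapped with DMSO. MYC rose 1.41-fold under compound 5 (log2 0.50, SE 0.11, with an adjusted p from edgeR's quasi-likelihood test of 0.027), and when the fit held the 4 samples of this comparison alone the adjusted p was 0.057. The log2-fold change was −0.04 (SE 0.11) under compound 4 and 0.04 (SE 0.11) under compound 6, with intervals (95%) of −0.28 to 0.21 and −0.21 to 0.28.

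**Figure D2:**
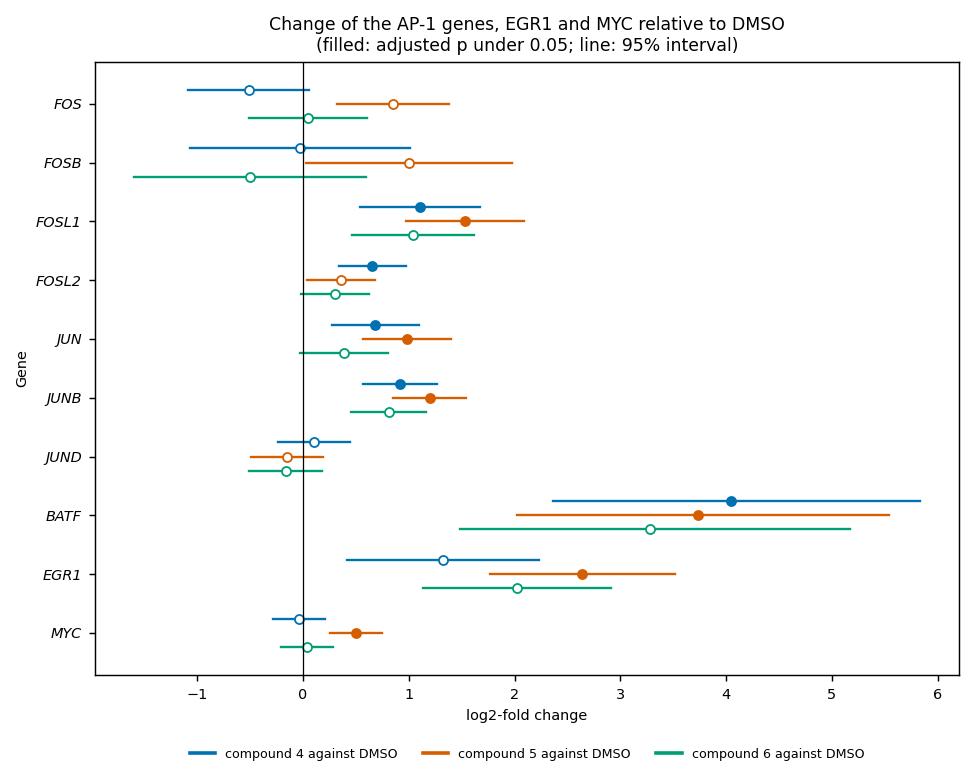
Log2-fold change of each gene relative to DMSO, with a 95% interval as a line, for compound 4 (blue), compound 5 (orange) and compound 6 (green). Filled points passed an adjusted p of 0.05 in edgeR's quasi-likelihood test, 5 under compound 4, 6 under compound 5 and none under compound 6, and BATF lies farthest to the right, between 3.28 and 4.05.

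The replicates shared a pattern within groups. Compound 5 replicate 1 was above replicate 2 for every gene except JUND, compound 6 replicate 2 was above replicate 1 for every gene except FOSB, and compound 4 replicate 2 was above replicate 1 for every gene except FOSB, JUND and EGR1. DMSO replicate 1 was above replicate 2 for every gene except FOSL1. The treated groups thus did not deviate in 1 direction by day.

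The compounds were also compared with each other in 3 pairs, with p-values adjusted over the 13400 genes of each pair. Compounds 4 and 6 differ by a tert-butyl against a cyclohexyl group beside each hydroxyl, while compound 5 has an ethane-derived bridge and more tert-butyl groups in place of the methyl groups. Each was given at its own IC50, so the values are not at equal molar dose, though the paper calls these IC50 values rather comparable. No gene passed the threshold in any pair (0 of 10, with 0%, 0.313% and 1.03% of all genes called for 4 against 6, 4 against 5 and 6 against 5), and 1, 4 and 5 genes had an unadjusted p under 0.05 in edgeR's quasi-likelihood test, compared with 7.05%, 16.2% and 18.5% of all genes. DESeq2 called 0, 3 and 2 of them.

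Compounds 4 and 6, which share the bridge and the methylphenol rings, gave no called gene. For FOSL1 the log2 difference was 0.07 (interval −0.47 to 0.60), for JUNB 0.11 (−0.23 to 0.44), for MYC −0.08 (−0.32 to 0.17) and for BATF 0.77 (−0.45 to 1.99). EGR1 was −0.70 (−1.50 to 0.10), so EGR1 could differ by a large amount that these samples cannot resolve. FOS had the smallest p of the 10 genes in any pair. Its log2 difference for compound 4 against compound 5 was −1.36 (interval −1.91 to −0.82, unadjusted p = 0.00025, adjusted p = 0.059, edgeR's quasi-likelihood test), both compound 4 libraries lay below both compound 5 libraries, as for 21.8% of tested genes, and with the day as a block the adjusted p was 0.046. The log2 difference of MYC was −0.54 (adjusted p = 0.084) for compound 4 against compound 5 and −0.46 (adjusted p = 0.076) for compound 6 against compound 5. The EGR1 difference between compounds 4 and 5 was −1.32 (interval −2.10 to −0.54, adjusted p = 0.14). For compound 6 against compound 5 the median log2 difference of the 10 genes was −0.48, against −0.0047 over all genes tested, with JUND (−0.01) and FOSL2 (−0.06) near 0.

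**Figure D3:**
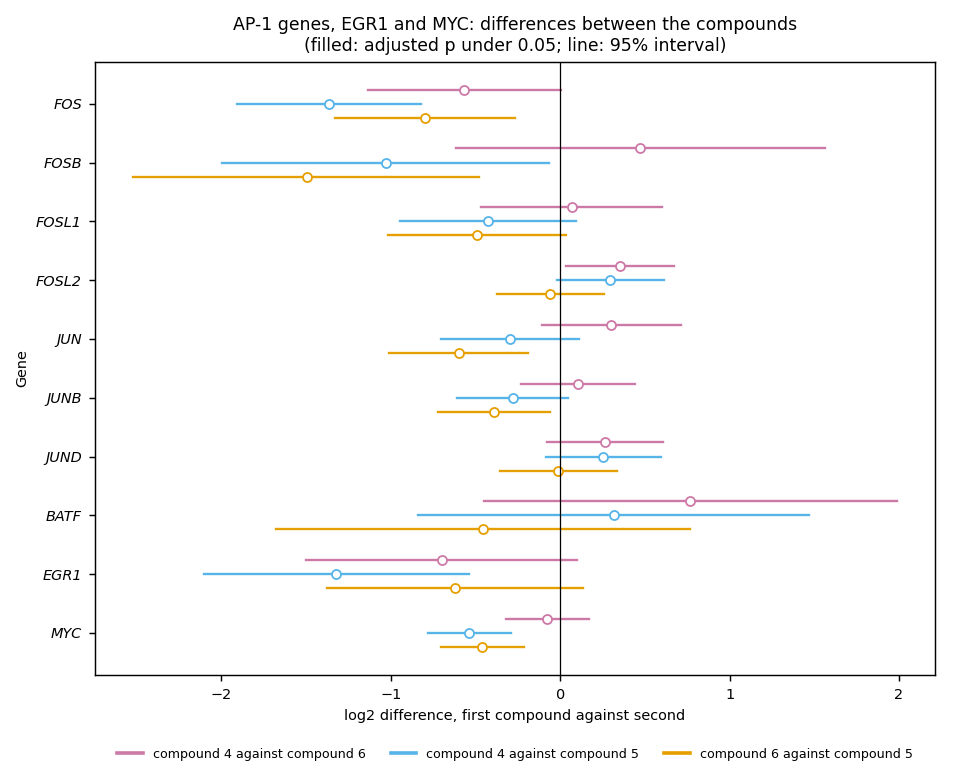
Log2 difference of each gene between the compounds, with a 95% interval as a line, for compound 4 against compound 6, compound 4 against compound 5 and compound 6 against compound 5. No point is filled, since none passed an adjusted p of 0.05 in edgeR's quasi-likelihood test, and the FOS point for compound 4 against compound 5 lies at −1.36.

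The genes around these factors were counted in 9 lists of 169 genes, 140 of them tested. Of these, 33, 37 and 5 were called with compounds 4, 5 and 6, where 9.51%, 8.3% and 0.575% of all tested genes were. The counts with compounds 4 and 5 include DUSP5 and JDP2, and that with compound 5 also CXCL8. Those genes passed the filter only because of treated libraries, so their calls add no support. Without DMSO replicate 2 these counts were 0, 1 and 0, and without DMSO replicate 1 they were 10, 5 and 0. Leaving out compound 4 replicate 2 gave 2 with compound 4, leaving out compound 5 replicate 1 gave 5 with compound 5, and leaving out compound 6 replicate 2 gave 0 with compound 6, which had 12 to 13 when a compound 5 library was left out. Medians over all genes tested were those given above. The ERK output list holds feedback inhibitors and targets of ERK. Of its 14 tested genes, 6 rose under compound 4, 7 under compound 5 and 2 under compound 6 and none fell, with medians of 0.30, 0.55 and 0.41 in log2-fold change. The 6 and 7 include DUSP5, which had 5 counts in each DMSO library and passed the filter only because of treated libraries. SPRY4, a feedback inhibitor of receptor tyrosine kinase signalling, went from 97.5 and 90.5 CPM in DMSO to 179 and 218, 257 and 211, and 189 and 228 CPM under compounds 4, 5 and 6. It rose under all 3 (log2 1.08, 1.31 and 1.15, with adjusted p-values from edgeR's quasi-likelihood test of 0.0050, 0.0031 and 0.023). DUSP6, a phosphatase that inactivates ERK, rose by 0.68, 0.71 and 0.64, and DUSP4, which acts on ERK and JNK, rose by 2.48 and 2.12 under compounds 4 and 5 and was at 1.61 (adjusted p = 0.076) under compound 6. IER3, an apoptosis modulator, rose by 1.20 and 1.87 under compounds 4 and 5.

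Among the other immediate early genes, 8 of 22 tested rose and BTG2, an antiproliferative gene, fell under compound 4. Under compound 5, 10 rose and BTG2 fell, and under compound 6, TRIB1 and MCL1 rose. The medians were 0.69, 0.89 and 0.56. TRIB1, a pseudokinase that steers protein degradation, was at 54.0 and 52.8 CPM in DMSO and at 91.0 and 113, 113 and 98.4, and 86.2 and 113 CPM under compounds 4, 5 and 6, and it rose by 0.93, 0.98 and 0.90 on the log2 scale (adjusted p-values from edgeR's quasi-likelihood test of 0.0097, 0.010 and 0.048). BTG2 fell by 0.86 and 0.82 under compounds 4 and 5. With compound 6 BTG2 was at 7.36 and 7.30 CPM against 13.0 and 13.2 CPM in DMSO, but it was not called. GADD45B, a growth arrest gene, rose by 1.38 under compound 4, while ZFP36L1, which promotes decay of AU-rich transcripts, rose by 0.71 and 1.25 and IER2 by 0.65 and 0.98 under compounds 4 and 5.

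Among the AP-1 dimer partners, JDP2, MAFF, MAFG and MAFK of 10 tested rose under compounds 4 and 5 and none was called with compound 6 (4 at an unadjusted p under 0.05), with medians of 0.94, 1.21 and 0.68. The small MAF proteins MAFF, MAFG and MAFK lack a transactivation domain and also pair with NRF2, while JDP2 is a JUN partner that represses AP-1. The log2-fold changes under compounds 4 and 5 were 0.89 and 1.21 for MAFF, 1.00 and 1.21 for MAFG, 1.34 and 1.61 for MAFK, and 1.58 and 1.78 for JDP2. JDP2 had 10 and 9 counts in DMSO and passed the filter only because of treated libraries, so its calls add no support. The medians of the list include JDP2 and also CREB5 (7 and 9 counts in DMSO), which passed in the same way. Of the 21 tested kinases and nuclear effectors that lie upstream, MAP2K2, the kinase MEK2, alone rose, a count no higher than the background share with compounds 4 and 5, by 0.47 and 0.51 with compounds 4 and 5, none was called with compound 6 (1 at an unadjusted p under 0.05), and the medians were 0.08, 0.23 and 0.09.

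Of 12 tested growth factor ligands and receptors, EREG, EGFR and TGFA rose under compound 4 and AREG, EREG and ADAM17 under compound 5. EREG and AREG are EGF receptor ligands, and ADAM17 sheds them from the cell surface. EREG averaged 14.6 ± 3.18 CPM in DMSO and 60.9 ± 27.2, 74.4 ± 40.7 and 77.7 ± 35.0 CPM with compounds 4, 5 and 6 (SD, n = 2), with log2-fold changes of 2.08, 2.35 and 2.42 (adjusted p-values from edgeR's quasi-likelihood test of 0.026, 0.019 and 0.054). AREG had log2-fold changes of 2.78, 3.22 and 3.02, and was called with compound 5 alone (adjusted p of 0.036 in edgeR's quasi-likelihood test). None was called with compound 6, where 4 of the list had an unadjusted p under 0.05.

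Among the 10 tested AP-1 targets, those that rose included TIMP1, HMGA1 and ITGA2 with compound 4 and ITGA2 with compound 5. The medians of the list were 0.83, 0.65 and 1.13 with compounds 4, 5 and 6. In edgeR's quasi-likelihood test 6, 6 and 7 of its genes had an unadjusted p under 0.05. The share of all tested genes was 18.6% with compound 6 and is not given for compounds 4 and 5. These figures include MMP3, IL11 and CXCL8, at 0.20, 0.13 and 0.40 CPM on average in DMSO. Those genes passed the filter only because of treated libraries, so they add no support. ITGA2, an integrin subunit that binds collagen, was at 155 and 122 CPM in DMSO and at 215 and 302, 393 and 233, and 266 and 326 CPM with compounds 4, 5 and 6, so every treated library lay above both DMSO libraries. TIMP1, a metalloproteinase inhibitor, rose by 1.13 under compound 4 and was at 0.31 under compound 5. With compound 6 TIMP1 averaged 47.0 ± 11.4 CPM against 23.2 ± 4.02 CPM in DMSO (SD, n = 2), and it was not called. CXCL8, a neutrophil chemokine, was called with compound 5, but it had 3 and 6 counts in DMSO against 89 and 36 with compound 5 and entered the test only through treated libraries.

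Among 11 tested EGR1 targets and corepressors, ICAM1, TGFB1 and THBS1 rose under compound 4, ICAM1 and NAB2 under compound 5 and none with compound 6 (4 at an unadjusted p under 0.05). NAB2, the corepressor that EGR1 induces and that limits it, rose by 0.62 under compound 5. Of 11 tested genes of the MYC dimer network, MLXIPL, which controls lipogenic genes, and MXD3, a MAX partner, fell under compound 4 (by 0.55 and 1.02), whereas MXD1, MLX and MAX rose and MLXIPL fell under compound 5. Of 31 tested MYC targets in ribosome production and growth, RRP12, MYBBP1A and DDX21 rose under compound 5 and NOP56 fell under compound 4 by 0.62, with medians of −0.11, 0.09 and −0.05. The 3 of 31 called with compound 5 compare with 8.3% of all tested genes, so this count is near the background. With compound 6 none of the MYC network or targets was called, and 1 and 5 of them had an unadjusted p under 0.05.

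**Figure D4:**
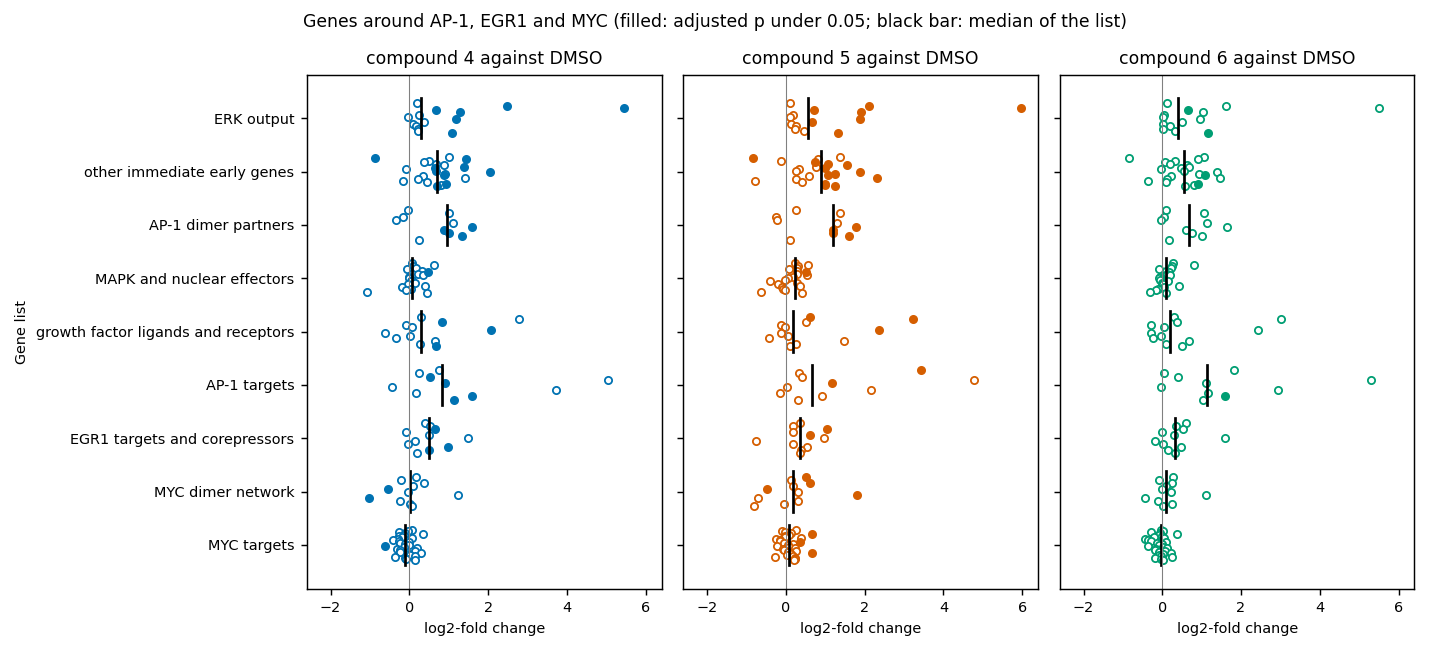
Log2-fold change of every tested gene of the 9 lists under compounds 4, 5 and 6 against DMSO, with the list's median as a black bar and filled points for genes past an adjusted p of 0.05 in edgeR's quasi-likelihood test. The medians of the AP-1 dimer partners (0.94, 1.21 and 0.68) lie right of 0, and those of the MYC targets (−0.11, 0.09 and −0.05) lie near it. The dimer partners include JDP2 and CREB5, which passed the filter only because of treated libraries.

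The genes whose pattern over the 8 libraries was most like that of each called gene, by Pearson's r of log2 CPM, are given as a description. They were VPS28 and INPP1 for FOSL1 (r = 0.993 for both), GADD45B and WSB2 for FOSL2 (0.988 and 0.981), FOXP4 and OSGIN1 for JUN (0.990 for both), and PHC2 and DAGLA for JUNB (0.989 and 0.987). For BATF they were MUC20 and SQSTM1 (0.998 and 0.990), for EGR1 RABGGTB and MIDN (0.988 and 0.985) and for MYC RMND5A and DDB1 (0.986 and 0.979). The libraries of a group share a treatment and all groups share the DMSO libraries as a low end, and the genes were picked from 13400 for their likeness.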

How the data were processed

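RNA from 8 samples in 4 groups was sequenced. The authors estimated transcript abundance with Salmon 1.5.0 on GRCh38 after quality control with FastQC 0.12.0, per the submitters' processing notes, and deposited whole-number gene counts without normalization, whose libraries held 9791659 to 17814595 counts. The 2 samples merged from 2 sequencing runs (DMSO replicate 1 and compound 4 replicate 1) were used as deposited, and DESeq2 1.38.3 is named for the authors' own tests. The paper names a directional library kit, but strand use in counting is not given in the sources used here.

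The tests were run with edgeR 4.0.16 under R 4.3.3 (TMM, filterByExpr at a minimum count of 10, quasi-likelihood tests with the 8 samples in 1 fit, Benjamini-Hochberg adjustment over the 13400 genes tested, threshold 0.05). CPM were computed on effective library sizes. With 2 against 2 samples no permutation test can reach 0.05, so none was run. The scripts were tested on simulated data. The study's day labels pair the replicates, and the difference between replicate 2 and 1 correlated between groups with an r of −0.15 to 0.24 over 6 pairs of groups. The members, gene lists and tests were chosen with earlier results of these data known. Named genes were the 10 factors, up to 4 called genes per list by adjusted p, and the 2 genes most like each called factor. A gene that this rule takes is not reported here. Alternatives were DESeq2 1.42.0, the replicate block, fits with the 4 samples of a comparison alone, size factors from DESeq2, no filter, a minimum of 10 counts in each sample and omission of single libraries. Positions and exon lengths come from GENCODE 29 and promoters from RefSeq, while the authors' counts rest on a later release.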

Additional observations from a re-analysis of the deposited data

How the results depend on the processing

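Of the 10 genes, the number called under compound 6 against DMSO was 4 with DESeq2, 4 in a fit of only the 4 samples compared, 4 without a filter and 2 with at least 10 counts in every sample, against 0. Each count of 4 includes BATF, which was almost absent in DMSO, so its calls add no support. Between compounds 4 and 6 the number called was 1 without a filter. Between compounds 4 and 5 it was 3 with DESeq2, 1 with the replicate block, 4 without a filter and 1 with at least 10 counts in every sample, and between compounds 6 and 5 it was 2 with DESeq2 and 5 without a filter. The causes were not tested. The other settings left the counts of called genes within 1.5 times, except when 1 library was left out: then the number called was 0 to 6 under compound 4, 0 to 8 under compound 5, 0 to 2 under compound 6 and 0 in each of the 3 pairs of compounds. The replicate block changed the call of JUN under compound 4 and of FOS between compounds 4 and 5, and no other call of the 10 genes.

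No called value was reversed. With the replicate block FOSB under compound 4 was 0.026, and with at least 10 counts in every sample JUND for 6 against 5 was 0.0025. Leaving out a library gave −0.40 to 0.42 for FOSB, −0.046 to 0.26 for JUND and −0.10 to 0.026 for MYC under compound 4, −0.24 to 0.38 for FOS and −0.027 to 0.094 for MYC under compound 6, −0.25 to 0.38 for FOSL1 and −0.051 to 0.29 for JUNB for 4 against 6, −0.35 to 0.77 for BATF for 4 against 5, and −0.23 to 0.13 for FOSL2, −0.16 to 0.16 for JUND and −1.57 to 0.16 for BATF for 6 against 5. Depth limits BATF most, with 3 counts in each DMSO library. For compound 6 the called genes of the 9 lists were 5, against 15 with DESeq2, 3 with the replicate block, 25 in the fit of 4 samples, 1 with DESeq2 size factors and 43 without a filter.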
